A study of Mus musculus with 24 samples.

Results

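The genes described here are Sp100, Sp110, Sp140, Gm7609 and C130026I21Rik, 5 neighbouring genes on mouse chromosome 1, out of the 39017 Ensembl genes in the count files. They were chosen by name, and all 5 passed the filter on low counts (an average of 5 or more), as did 14361 genes in all. The choice followed earlier results from the same counts, in which Gm7609 stood out in YAP-TFE3 cells against EV, YAP5SA and TFE3 cells. The members' values in those comparisons are therefore given as a description, with no test. The data were RNA-Seq counts from NIH 3T3 cells, an established line of mouse fibroblasts, with 24 libraries in 8 groups of 3. The cells had been transduced with a retroviral vector and selected as pooled stable lines, and by the study's methods the libraries of a group came from separate transductions.

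EV cells carried the empty vector and had been confluent for 48 h when they were collected. TAZ-CAMTA1 and YAP-TFE3 cells, collected in the same way, carried the fusion proteins found in epithelioid hemangioendothelioma, a vascular sarcoma. TAZ4SA and YAP5SA cells carried forms of TAZ and YAP in which the serines that the Hippo kinases phosphorylate were replaced by alanine. TFE3 cells carried full-length TFE3. These groups were also confluent for 48 h. CAMTA1 cells carried full-length CAMTA1 and were collected at sub-confluence, so they were compared with EVsub, the empty vector at sub-confluence. All proteins were expressed from the vector and not from the cells' own genes. For YAP-TFE3 replicate 3 the description and the title in the labels give different replicate numbers, and the title was used.

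Sp100, Sp110 and Sp140 encode members of the speckled protein family, chromatin-associated proteins of the nucleus with a SAND DNA-binding domain. SP100 is a constant component of PML nuclear bodies, the nuclear dots built around the PML protein, and its gene is a known interferon target. Sp110 and Sp140 are best known from immune cells, where the mouse locus that holds them influences resistance to intracellular bacteria. TAZ and YAP are coactivators that reach DNA through TEAD factors, and the fusion proteins retain the part that binds TEAD.

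The 5 members lie within 717 kb of chromosome 1 in the mm10 build. C130026I21Rik, a protein-coding gene with a RIKEN name, is at chr1:84992690-85270566 on the minus strand. Gm7609 is at chr1:85199613-85213786 on the plus strand, inside the span of C130026I21Rik, and shares 0 exon bases with it. GENCODE lists Gm7609 as a transcribed unprocessed pseudogene, meaning a gene copy that is transcribed and carries introns but has no assigned protein. Sp110 is at chr1:85576899-85598817 on the minus strand, Sp140 is at chr1:85600378-85645037 on the plus strand, and Sp100 is at chr1:85649988-85709998 on the plus strand. Another 25 annotated genes lie between the outermost members, and most of them are pseudogenes or non-coding transcripts.

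Libraries held 16471181 to 30132586 counts each (median 22298975). Levels are given in CPM, counts scaled to a common library size with TMM factors, as the mean ± SD of 3 libraries. The 7 fibroblast markers summed to between 18742 and 52108 CPM in every library. The 7 myeloid markers summed to 4.33 to 5.02 CPM in YAP-TFE3, 2.22 to 3.07 in TAZ-CAMTA1 and 3.10 to 4.42 in EV. Their sum was higher in TAZ4SA (16.4 to 67.4 CPM) and YAP5SA (83.5 to 132 CPM). The myeloid markers Tyrobp and Adgre1 and the epithelial marker Epcam were at 0 counts in all 24 libraries. The 4 lymphoid markers summed to at most 0.375 CPM, the 5 endothelial markers to at most 12.3 CPM and the 5 epithelial markers to at most 9.25 CPM. In bulk RNA of this kind, fewer cells of a type and less RNA per cell cannot be told apart.

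Sp100 stood at 3.38, 2.91 and 2.83 CPM in the 3 EV libraries. It stood at 7.92, 8.61 and 8.54 CPM in the TAZ-CAMTA1 libraries and at 33.0, 13.5 and 12.2 CPM in the YAP-TFE3 libraries. All 6 libraries with a fusion protein were above the 18 others, which ran from 0.999 to 3.42 CPM. The lowest groups were YAP5SA (1.39 ± 0.242), CAMTA1 (1.51 ± 0.521) and TAZ4SA (1.51 ± 0.0268 CPM), and their libraries overlapped. TFE3 (2.24 ± 0.246), EVsub (2.69 ± 0.674) and EV (3.04 ± 0.294 CPM) followed, each overlapping the next but set apart from TAZ4SA. The highest CAMTA1 library (2.04 CPM) was above the lowest TFE3 library (1.97 CPM). Above EV came a gap to TAZ-CAMTA1 (8.36 ± 0.378) and another to YAP-TFE3 (19.6 ± 11.7 CPM).

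Sp110, whose protein is a nuclear body component of leukocytes, was low outside the YAP-TFE3 cells. It stood at 0.295, 0.382 and 0.487 CPM in EV, at 0.849, 1.07 and 1.24 CPM in TAZ-CAMTA1 and at 9.27, 3.65 and 2.63 CPM in YAP-TFE3. The YAP-TFE3 libraries lay above all others. YAP5SA was the next highest of the groups without a fusion protein (1.03 ± 0.516 CPM), and its libraries overlapped those of TAZ-CAMTA1 (1.05 ± 0.195 CPM). The lowest group was CAMTA1 (0.177 ± 0.0478 CPM).

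Sp140, a SAND and bromodomain protein, had the flattest profile. It stood at 5.99, 5.20 and 5.79 CPM in EV, at 5.78, 7.26 and 7.02 CPM in TAZ-CAMTA1 and at 12.1, 9.14 and 7.26 CPM in YAP-TFE3. YAP-TFE3 (9.49 ± 2.43) and YAP5SA (9.42 ± 1.35 CPM) were the highest groups and overlapped. CAMTA1 was the lowest (3.93 ± 0.931 CPM), and each group overlapped the next in order.

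C130026I21Rik stood at 0.506, 0.668 and 0.663 CPM in EV, at 0.890, 1.21 and 0.998 CPM in TAZ-CAMTA1 and at 4.71, 2.88 and 1.27 CPM in YAP-TFE3. The lowest YAP-TFE3 library was above the highest TAZ-CAMTA1 library by a small margin. YAP5SA (0.975 ± 0.182 CPM) overlapped TAZ-CAMTA1 (1.03 ± 0.163 CPM), and CAMTA1 was again the lowest (0.242 ± 0.0645 CPM).

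Gm7609 was close to absent in 5 of the 8 groups and abundant in YAP-TFE3 cells. It had 1, 1 and 2 counts in the EV libraries, 1, 0 and 2 in EVsub, 3, 0 and 4 in CAMTA1, 0, 2 and 3 in YAP5SA and 0, 3 and 1 in TFE3. TAZ4SA had 7, 11 and 4 counts and TAZ-CAMTA1 had 21, 17 and 36. YAP-TFE3 had 523, 438 and 216 counts, or 26.2, 14.7 and 9.17 CPM. TAZ4SA (0.449 ± 0.336) and TAZ-CAMTA1 (1.03 ± 0.357) stood between the low groups and YAP-TFE3 (16.7 ± 8.70 CPM). In order of level the groups overlapped from EVsub up to TAZ4SA, the highest TAZ4SA library (0.824 CPM) overlapped the lowest of TAZ-CAMTA1 (0.792 CPM), and TAZ-CAMTA1 did not overlap YAP-TFE3.

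**Figure D1:**
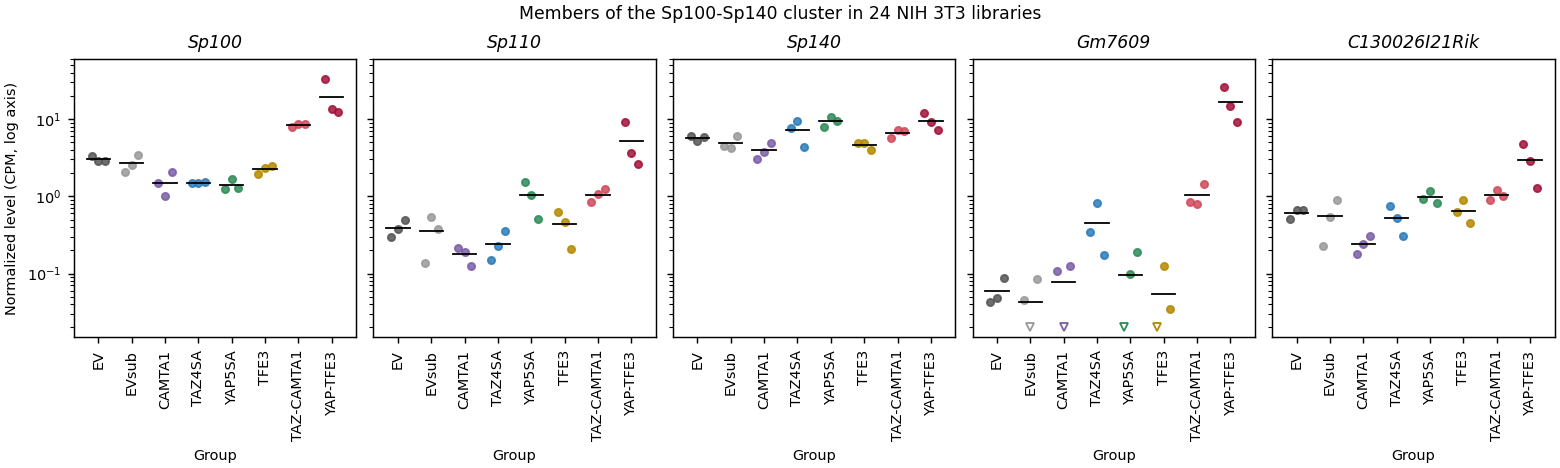
Level of each member in 24 NIH 3T3 libraries. The vertical axis is the TMM-scaled level in CPM on a log scale, the horizontal axis gives the 8 groups, each point is a library, the black line is the mean of 3 libraries, and open triangles mark libraries with 0 counts. The YAP-TFE3 libraries of Gm7609 sit between 9.17 and 26.2 CPM while its 18 libraries without a fusion protein sit at or below 0.824 CPM, and Sp140 varies least.

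Compared per kb of exon sequence, the order of the members changed between EV and YAP-TFE3 cells. In EV cells the levels per kb were 1.70 CPM for Sp140, 0.402 for Sp100, 0.160 for C130026I21Rik, 0.0572 for Sp110 and 0.0238 for Gm7609. In YAP-TFE3 cells they were 6.68 CPM for Gm7609, 2.85 for Sp140, 2.59 for Sp100, 0.772 for C130026I21Rik and 0.765 for Sp110. Gm7609 moved from the lowest to the highest member. As a share of the counts of the 5 members together, Gm7609 made up 0.608% of 658 counts in EV, 5.73% of 1292 in TAZ-CAMTA1 and 31.2% of 3778 in YAP-TFE3. The share of Sp140 went the other way, from 58.1% in EV to 36.8% in TAZ-CAMTA1 and 18.1% in YAP-TFE3.

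Every member was highest in YAP-TFE3 replicate 1 and lowest in YAP-TFE3 replicate 3 among the 3 YAP-TFE3 libraries. The highest of these libraries stood 2.70-fold above the lowest for Sp100, 3.52-fold for Sp110, 1.66-fold for Sp140, 2.86-fold for Gm7609 and 3.70-fold for C130026I21Rik. Without YAP-TFE3 replicate 1 the fold over EV was 4.14 for Sp100 in place of 6.40, and 7.88 for Sp110 in place of 13.1. It was 1.42 for Sp140 in place of 1.67, and 3.34 for C130026I21Rik in place of 4.77.

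The first comparison asked which members differed between TAZ-CAMTA1 cells and cells with the empty vector. Sp100 and Gm7609 rose, and no member fell. Sp100 was 2.74-fold higher (log2 fold change 1.46 ± 0.29 SE, adjusted p = 0.000942 by edgeR's quasi-likelihood test). Gm7609 was higher by a ratio of 17.5 between the summed counts, 74 against 4 before scaling, with a 95% interval from 6.54 to 65.8 that covers counting error only. Its adjusted p was 0.000684 in the same edgeR fit, which for this gene is a description and no independent test. Gm7609 passed the count filter only through the libraries with a fusion protein, with a mean of 54.0 counts over all libraries, 5.67 without YAP-TFE3 and 2.50 over the 18 libraries without a fusion protein. The count of 2 of 5 members called higher includes Gm7609 and stands beside a background of 12.5% of all tested genes called higher. The EV libraries are the same as those of the comparison that drew attention to Gm7609.

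Sp110 stood 2.70-fold above EV with no overlap of the libraries but missed the threshold (log2 fold change 1.43 ± 0.53 SE, edgeR adjusted p = 0.0578). It passed in 5 of 29 alternative analyses, with edgeR or DESeq2 adjusted p between 0.0103 and 0.187, among them the fits without YAP-TFE3 replicate 1 (0.0235) or YAP-TFE3 replicate 3 (0.0401). C130026I21Rik gave 0.75 ± 0.45 (adjusted p = 0.252) and Sp140 gave 0.24 ± 0.24 (adjusted p = 0.522). Libraries of TAZ-CAMTA1 and EV did not overlap for 4 of the 5 members, all higher in TAZ-CAMTA1, against 23.1% of all tested genes with every TAZ-CAMTA1 library above every EV library.

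TAZ4SA was compared with EV to ask whether active TAZ without the CAMTA1 part moved the same genes. Sp100 fell in TAZ4SA cells by 1.01 ± 0.33 on the log2 scale, a 2.01-fold lower level (adjusted p = 0.0133). Gm7609 was higher, with 22 counts against 4 and a ratio of 6.58 (95% counting interval 2.23 to 26.2, edgeR adjusted p = 0.0193). It was tested here only because the libraries with a fusion protein carried it past the count filter. For Gm7609 this p is therefore a description and no independent test. The 2 members called, 1 in each direction and Gm7609 among them, stand beside 57.5% of all tested genes called in this comparison. The call of Gm7609 was lost without EV replicate 1 (adjusted p = 0.0589), EV replicate 2 (0.0511) or TAZ4SA replicate 2 (0.113). Sp110 gave -0.64 ± 0.68, Sp140 gave 0.32 ± 0.24 and C130026I21Rik gave -0.23 ± 0.51 on the log2 scale, with edgeR adjusted p of 0.442, 0.262 and 0.716. Sp140 passed only without TAZ4SA replicate 3 (adjusted p = 0.0276).

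The direct comparison of TAZ-CAMTA1 with TAZ4SA separated Sp100 and Sp110. Sp100 was 5.52-fold higher in TAZ-CAMTA1 (log2 fold change 2.46 ± 0.32, adjusted p = 1.82e-06), and Sp110 was 4.19-fold higher (2.07 ± 0.59, adjusted p = 0.00569). The 2 members called higher stand beside 26.6% of all tested genes called higher. Gm7609 missed the threshold (74 counts against 22, ratio 2.66, counting interval 1.63 to 4.49, adjusted p = 0.0517), as did C130026I21Rik (log2 fold change 0.98 ± 0.47, adjusted p = 0.0843). Gm7609 passed in 8 of 29 alternative analyses, with edgeR or DESeq2 adjusted p between 0.0116 and 0.209. Both passed without YAP-TFE3 replicate 3, with edgeR adjusted p of 0.0379 and 0.0450, so that 4 members were then called. For Gm7609 these values are a description and no independent test, as in the comparisons with EV. Sp140 gave -0.08 ± 0.24 (edgeR adjusted p = 0.784).

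Full-length CAMTA1 and cell density moved no member past the threshold. In CAMTA1 against EVsub 0 of 5 members were called by edgeR, beside 2.18% of all tested genes, and DESeq2 also called 0. At an unadjusted p under 0.05 there were 2, Sp100 and C130026I21Rik. Sp100 gave -0.81 ± 0.32 (adjusted p = 0.187), with every CAMTA1 library below every EVsub library (12.8% of all tested genes), and C130026I21Rik gave -1.16 ± 0.53 (adjusted p = 0.256). In EVsub against EV edgeR and DESeq2 called 0 of 5, edgeR gave 0 at an unadjusted p under 0.05, and 22.1% of all tested genes were called. The log2 differences ran from -0.49 ± 1.38 for Gm7609 to -0.10 ± 0.61 for Sp110.

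The values of YAP-TFE3 against EV, which contributed to the choice of these genes, are described here without a test. Gm7609 had 1177 counts against 4, a ratio of 270 between scaled sums with a counting interval from 105 to 991. The log2 fold changes were 3.71 ± 0.49 for Sp110, 2.68 ± 0.30 for Sp100, 2.25 ± 0.42 for C130026I21Rik and 0.74 ± 0.24 for Sp140. For all 5 members every YAP-TFE3 library was above every EV library, as it was for 19.8% of all tested genes. The median log2 difference over the members was 2.68, beside 0.0 over all tested genes.

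Cells with YAP5SA or full-length TFE3 gave other profiles. The YAP-TFE3 fusion holds only the N terminus of YAP and the C terminus of TFE3. In YAP5SA against EV, Sp100 was at -1.12 ± 0.34, Sp110 at 1.42 ± 0.54, Sp140 at 0.73 ± 0.24 and C130026I21Rik at 0.68 ± 0.46 on the log2 scale. Gm7609 had 5 counts in YAP5SA against 4 in EV. In TFE3 against EV the log2 differences ran from -0.44 ± 0.31 for Sp100 to 0.12 ± 0.59 for Sp110, and Gm7609 had 4 counts in each group. Against YAP5SA, the YAP-TFE3 cells had 3.80 ± 0.33 more Sp100, 2.30 ± 0.44 more Sp110, 1.57 ± 0.40 more C130026I21Rik and 0.01 ± 0.23 more Sp140 on the log2 scale. Sp140 thus stood at nearly the same level in YAP-TFE3 and YAP5SA cells. Against TFE3, the YAP-TFE3 cells had 3.59 ± 0.48 more Sp110, 3.11 ± 0.30 more Sp100, 2.17 ± 0.41 more C130026I21Rik and 1.03 ± 0.24 more Sp140. The comparisons with EV share the EV libraries and are not independent of each other.

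The fusion proteins differed from each other in the size of the member levels. TAZ-CAMTA1 libraries were below all YAP-TFE3 libraries for Sp100, Sp110, Gm7609 and C130026I21Rik, with levels lower by factors of 2.33, 4.87, 16.1 and 2.84 in the fit. Every TAZ-CAMTA1 library was below every YAP-TFE3 library for 19% of all tested genes. For Sp140 the libraries of the fusion proteins overlapped, and the factor was 1.42. Without YAP-TFE3 replicate 1 the log2 difference of TAZ-CAMTA1 from YAP-TFE3 was -0.63 in place of -1.22 for Sp100, and -1.58 in place of -2.28 for Sp110.

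**Figure D2:**
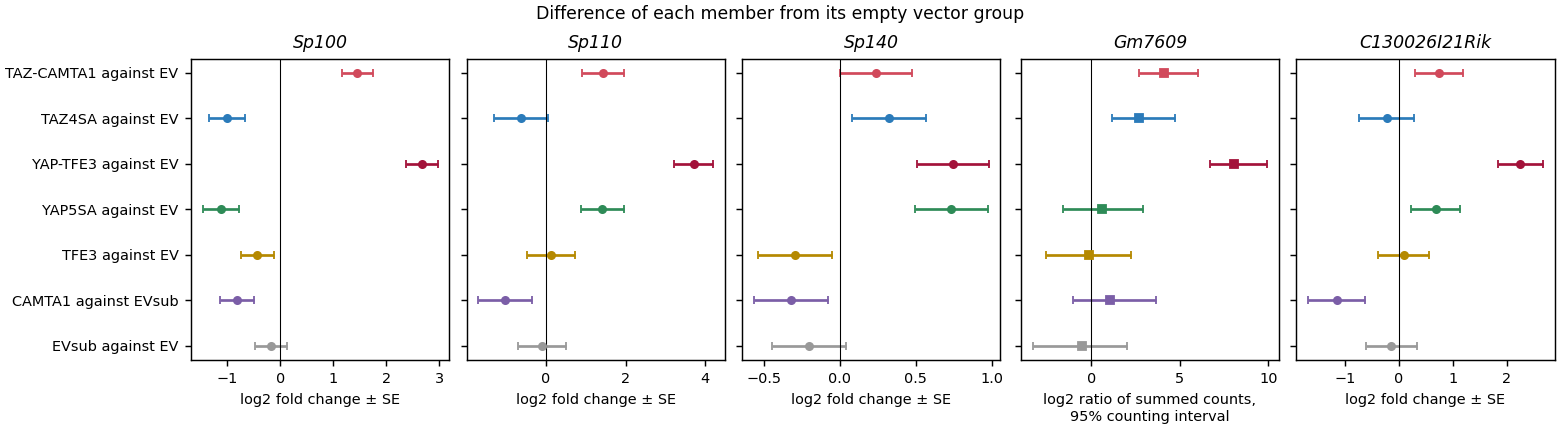
Difference of each member from its empty vector group. The horizontal axis is the log2 fold change with a standard error derived from the edgeR test. For Gm7609 it is the log2 ratio of scaled summed counts with a 95% counting interval. The rows are the comparisons. Horizontal scales differ between panels. Sp100 lies right of 0 for TAZ-CAMTA1 (1.46) and YAP-TFE3 (2.68) and left of 0 for TAZ4SA (-1.01) and YAP5SA (-1.12).

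The promoters of the members fell into groups by sequence. The RefSeq promoter table (GRCm38.p6, windows of 300 bases around the start site) held all 5 members. The promoters of Sp100 and Gm7609 aligned over 272 bases with 268 identities (98.5%), and those of Sp140 and C130026I21Rik over 255 bases with 254 identities (99.6%). The other 8 pairs of promoters aligned only locally, at 58.6% to 67.3% identity. Sp100, Gm7609 and Sp110 are printed to show a stretch they share, and Sp140 for contrast, each 5′ to 3′ on the gene's own strand. Capitals mark matches to AANNGAAA, the core of sites for interferon regulatory factors (IRFs), and to CATTCC, the site of TEAD factors, on either strand, with 1 base shared where IRF matches meet.
Sp100 (chr1:85649738-85650037, plus strand): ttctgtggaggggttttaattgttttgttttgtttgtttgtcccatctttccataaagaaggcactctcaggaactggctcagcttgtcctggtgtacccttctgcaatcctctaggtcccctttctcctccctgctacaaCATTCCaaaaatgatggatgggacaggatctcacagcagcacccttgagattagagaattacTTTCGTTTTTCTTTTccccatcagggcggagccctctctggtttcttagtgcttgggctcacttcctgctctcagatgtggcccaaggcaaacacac
Gm7609 (chr1:85199361-85199660, plus strand): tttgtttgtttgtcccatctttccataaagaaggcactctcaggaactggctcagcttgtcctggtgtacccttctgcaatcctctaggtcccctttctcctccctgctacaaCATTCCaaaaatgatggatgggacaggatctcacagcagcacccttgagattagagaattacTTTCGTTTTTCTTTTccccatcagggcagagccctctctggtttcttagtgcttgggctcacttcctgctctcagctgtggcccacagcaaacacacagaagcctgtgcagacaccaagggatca
Sp110 (chr1:85598761-85599060, minus strand): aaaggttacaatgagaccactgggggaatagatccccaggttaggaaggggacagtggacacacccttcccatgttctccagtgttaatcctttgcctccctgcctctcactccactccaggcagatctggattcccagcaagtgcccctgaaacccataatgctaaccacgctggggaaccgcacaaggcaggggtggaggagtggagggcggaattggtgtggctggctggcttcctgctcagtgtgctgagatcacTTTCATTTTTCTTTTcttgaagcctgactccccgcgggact
Sp140 (chr1:85600453-85600752, plus strand): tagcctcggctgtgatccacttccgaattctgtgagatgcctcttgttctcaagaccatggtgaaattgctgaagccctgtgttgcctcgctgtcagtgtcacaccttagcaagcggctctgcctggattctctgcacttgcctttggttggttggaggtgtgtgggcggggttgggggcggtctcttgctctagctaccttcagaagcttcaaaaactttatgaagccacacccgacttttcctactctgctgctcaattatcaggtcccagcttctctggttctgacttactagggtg

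Sp100, Gm7609 and Sp110 each held a pair of IRF core matches that overlapped by 1 base, while Sp140 and C130026I21Rik held none of the motifs searched. AANNGAAA was present in 23.9% of the 32851 promoters in the table, searched on both strands. CATTCC, present in 14.7% of promoters, occurred in Sp100 and Gm7609, at the same place in their near-identical promoters. The full interferon-stimulated response element, GAAA repeated after a gap of 2 bases (3.44% of promoters), the STAT motif TTCNNNGAA (8.30%) and the E-box CACGTG (7.15%), which TFE3 is known to bind, were in none of the 5 windows. The 15 bases around the paired cores read TTTCNTTTTTCTTTT in all 3 promoters. This pattern, chosen after the sequences were seen, was found in 13 of the 32851 promoters (0.0396%), from 12 genes, and 4 of the 13 belong to these 3 members. The start site used for Sp140 is 325 bases from the gene's start in GENCODE. A match is a stretch of letters and not a measured binding site.

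The members share exact sequence with each other and with other genes, which limits how reads can be assigned. Of all distinct stretches of 75 bases, the length of a read, in the annotated transcripts, 3.12% in Sp100 also occurred in another annotated gene. The share was 23.4% in C130026I21Rik, 27.2% in Gm7609, 30.4% in Sp110 and 46.3% in Sp140. Sp100 and Gm7609 shared 115 stretches with each other, 1.45% of those of Sp100 and 4.36% of those of Gm7609. Gm7609 shared 16.4% of its stretches with Gm15433 and 11.1% with Gm7592, pseudogenes on chromosome 1. The study's methods name an alignment with Hisat2 and also gene-level counts summed from Salmon estimates, and do not say which gave the deposited whole numbers. The libraries were made with a kit that marks strand, and whether the counting used strand or divided shared reads is not given in the sources used here, so the split between these genes is uncertain.

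Sp140 shared 12.2% of its stretches with Arhgef12, a guanine nucleotide exchange factor on chromosome 9, and 17.5% with Gm17017, an antisense gene that covers 26.4% of its exon bases. Arhgef12 is abundant, at 112 ± 4.10 CPM in EV, 130 ± 4.39 in TAZ-CAMTA1, 133 ± 9.75 in YAP-TFE3 and 79.0 ± 2.55 CPM in YAP5SA. Sp140 and Arhgef12 thus stood in different orders, since YAP5SA had the lowest of these 4 levels for Arhgef12 and nearly the highest for Sp140. Gm17017 had at most 9 counts in any EV, TAZ-CAMTA1 or YAP-TFE3 library. The part of shared reads in the level of Sp140 was not tested.

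**Figure D3:**
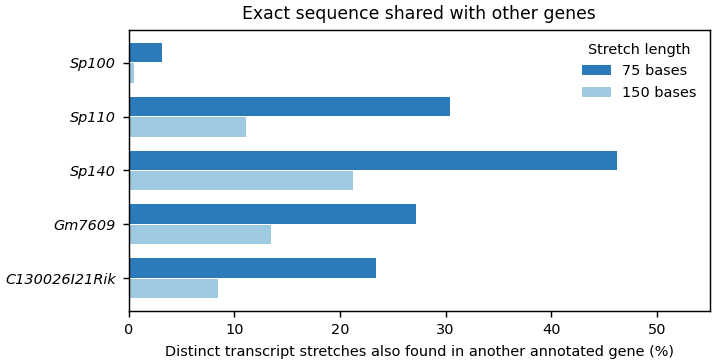
Share of the distinct stretches of each member's transcripts, in percent, that also occur exactly in another annotated gene, for stretches of 75 bases (dark) and 150 bases (light). At 75 bases the share runs from 3.12% in Sp100 to 46.3% in Sp140, and at 150 bases from 0.507% to 21.3%.

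Genes around the cluster were examined over 500 kb on each side and between the members. Of 54 annotated neighbours 43 were in the files and 11 passed the count filter, Gm7592 among them only through its YAP-TFE3 counts. Of the other 10, 1 rose and 2 fell in TAZ-CAMTA1 against EV, or 3 of 10 beside a background of 21.5%. In YAP-TFE3 against EV, 2 rose and 1 fell, or 3 of 10 beside a background of 15.3%. The 2 that rose were A630001G21Rik and A530040E14Rik, an antisense gene (log2 fold change 2.06 ± 0.51, edgeR adjusted p = 0.00722). A530040E14Rik covers 8.96% of the exon bases of C130026I21Rik, on the opposite strand, and shares 157 stretches of 75 bases with it. The part of shared reads in the levels of A530040E14Rik and C130026I21Rik was not tested. The median log2 difference of the 10 was 0.03 and 0.16, beside 0.00 over all tested genes in both comparisons. Without YAP-TFE3 replicate 1 only 1 of the 10, Armc9, was called in YAP-TFE3.

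Gm7592, a transcribed pseudogene between C130026I21Rik and Sp110, showed the largest difference of the 11 in both comparisons. It had 2 counts in all EV libraries together, 21 in TAZ-CAMTA1 and 82 in YAP-TFE3. The ratio over EV was 9.91 in TAZ-CAMTA1 (counting interval 2.42 to 87.2) and 37.6 in YAP-TFE3 (10.1 to 316). Its 120 counts over all libraries just met the filter, and its mean was 1.81 over the 21 without YAP-TFE3, so these values are a description with no test. Gm7592 shares 75-base stretches with Sp100 (135) and Gm7609 (292).

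Just outside the cluster, the nearest tested gene on the Sp100 side was called in YAP-TFE3 cells. A630001G21Rik, the nearest tested gene beyond Sp100, rose (log2 fold change 1.53 ± 0.37, adjusted p = 0.00610), from 0.506, 0.430 and 0.619 CPM in EV to 2.11, 1.61 and 0.849 CPM in YAP-TFE3. The call was lost without YAP-TFE3 replicate 1 (1.22, adjusted p = 0.0635). It gave 0.04 ± 0.42 in TAZ-CAMTA1 (adjusted p = 0.961). Fbxo36, an F-box protein gene and the nearest tested gene on the other side, gave -0.44 ± 0.21 in YAP-TFE3 and -0.56 ± 0.21 in TAZ-CAMTA1 (edgeR adjusted p = 0.186 and 0.0671).

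**Figure D4:**
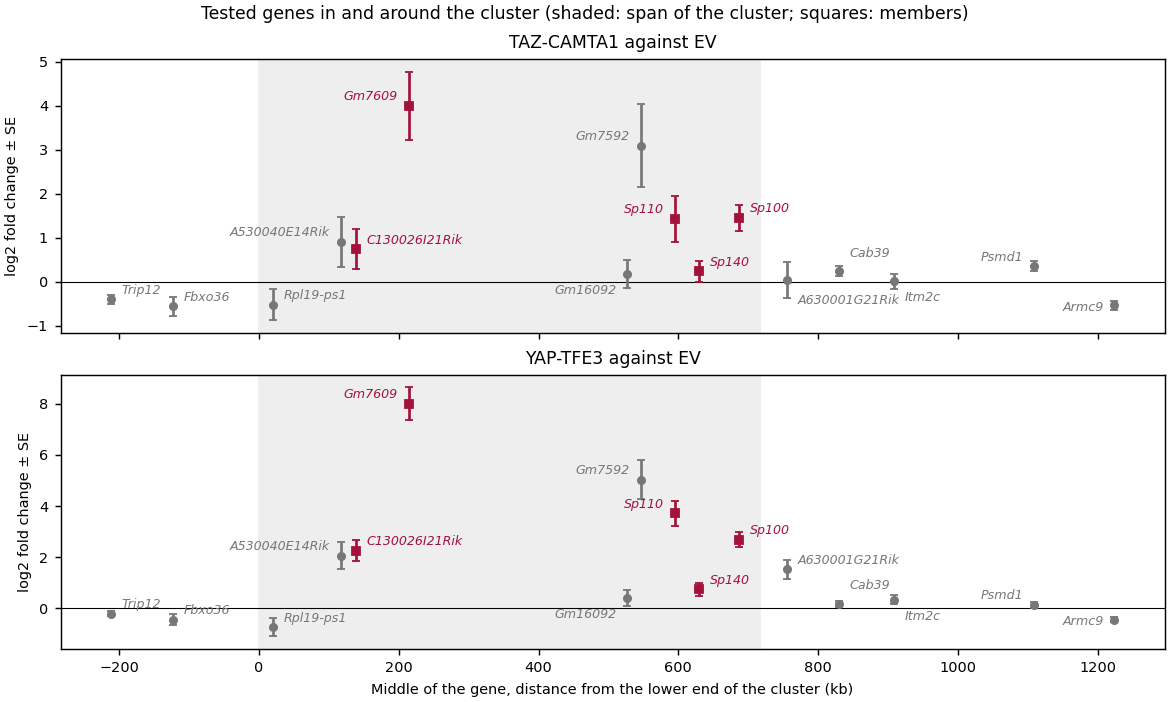
Tested genes in and around the cluster in TAZ-CAMTA1 (top) and YAP-TFE3 (bottom) against EV. The horizontal axis is the distance of each gene's middle from the lower end of the cluster in kb, the vertical axis is the log2 fold change with its standard error, squares are members, circles are neighbours and the shaded band is the span of the cluster. The fitted values of Gm7609 and Gm7592 rest on 4 and 2 EV counts. In YAP-TFE3 the genes with differences above 1 sit inside the band, apart from A630001G21Rik (1.53) just beyond it.

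Because Sp100 and its relatives are known interferon targets, a list of 72 genes of the interferon system was examined, of which 61 were tested. In TAZ-CAMTA1 against EV 8 rose (13.1%, background 12.5%) and 8 fell (13.1%, background 8.98%). In YAP-TFE3 against EV 13 rose (21.3%, background 10.6%) and 3 fell (4.92%, background 4.74%). The median log2 difference of the list was -0.06 in TAZ-CAMTA1 and 0.09 in YAP-TFE3. The number that rose in YAP-TFE3 was 8 without YAP-TFE3 replicate 1. The number that fell in TAZ-CAMTA1 was 4 without EV replicate 1 or EV replicate 3, 5 without TAZ-CAMTA1 replicate 2 and 3 without TAZ-CAMTA1 replicate 3.

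Of the pathway's signalling genes, Stat2 rose in YAP-TFE3. The transcript of the ligand Ifnb1 had at most 2 counts in any library, and 0 in every EV and YAP-TFE3 library. Stat2, which carries type I interferon signals to the nucleus, rose in YAP-TFE3 (log2 fold change 1.12 ± 0.16, adjusted p = 2.33e-05), where the libraries stood at 109, 63.7 and 65.8 CPM against 36.7 ± 1.32 CPM in EV. Stat2 gave -0.23 ± 0.16 in TAZ-CAMTA1 (adjusted p = 0.317). The IRF genes Irf1, Irf7 and Irf9 were not called in either comparison, with log2 differences of -0.38, -0.05 and -0.20 in TAZ-CAMTA1 and -0.35, 0.37 and 0.04 in YAP-TFE3.

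All comparisons with EV share the EV libraries. Nlrc5, the transactivator of MHC class I genes, rose by 3.22 ± 0.38 in TAZ-CAMTA1 and 2.92 ± 0.38 in YAP-TFE3 on the log2 scale (edgeR adjusted p = 2.00e-06 and 1.18e-05). Nlrc5 gave 0.02 ± 0.49 in TAZ4SA and -0.07 ± 0.50 in YAP5SA (edgeR adjusted p = 0.982 and 0.907). In TFE3 it gave 1.19 ± 0.42 and was not called (edgeR adjusted p = 0.140). The TFE3 libraries (0.558 to 1.16 CPM) lay above those of EV (0.286 to 0.531 CPM). Bst2, a surface protein that tethers virus particles, rose by 2.42 ± 0.24 and 2.08 ± 0.24 (edgeR adjusted p = 1.56e-07 and 1.89e-06). Bst2 also rose without a fusion protein, by 1.92 ± 0.24 in TAZ4SA and 2.51 ± 0.24 in YAP5SA (edgeR adjusted p = 5.92e-07 and 5.13e-09). Ifit1, which binds foreign RNA, rose by 1.59 ± 0.26 and 1.17 ± 0.26 (edgeR adjusted p = 0.000127 and 0.00338). Ifit1 rose by 2.21 ± 0.26 in TAZ4SA and gave -0.64 ± 0.30 in YAP5SA (edgeR adjusted p = 3.91e-07 and 0.0603). Herc6, a ligase of the ISG15 system, rose by 1.49 ± 0.24 in YAP-TFE3 and 0.71 ± 0.24 in TAZ-CAMTA1 (edgeR adjusted p = 0.000117 and 0.0381), the second lost when any EV library, TAZ-CAMTA1 replicate 2 or 3, or YAP-TFE3 replicate 1 was left out. Rtp4, an interferon-induced chaperone, fell in TAZ-CAMTA1 (-1.46 ± 0.27, adjusted p = 0.000387) and in YAP-TFE3 (-0.84 ± 0.25, adjusted p = 0.0264). Rtp4 rose in TAZ4SA (1.34 ± 0.23, adjusted p = 4.76e-05) and fell in YAP5SA (-0.83 ± 0.26, adjusted p = 0.00762). Herc6 gave 0.08 ± 0.25 in TAZ4SA (adjusted p = 0.808) and fell in YAP5SA (-0.65 ± 0.26, adjusted p = 0.0291). The YAP-TFE3 call of Rtp4 was lost without EV replicate 1 or 3 or YAP-TFE3 replicate 1 or 3. It was also lost with no filter on low counts (edgeR adjusted p = 0.0786) and with only the compared groups fitted (edgeR adjusted p = 0.0713).

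By role, 0 of 5 tested sensors rose in TAZ-CAMTA1 and 1 in YAP-TFE3. Of 9 tested antigen presentation genes, 2 rose in TAZ-CAMTA1 and 4 in YAP-TFE3 and none fell in either. Of 6 tested interferon-inducible GTPase genes, 3 fell in TAZ-CAMTA1, and 1 rose and 1 fell in YAP-TFE3. Of 30 tested effectors, 5 rose and 4 fell in TAZ-CAMTA1, and 5 rose and 2 fell in YAP-TFE3. Beside these counts, 12.5% of all tested genes rose and 8.98% fell in TAZ-CAMTA1, and 10.6% rose and 4.74% fell in YAP-TFE3. The roles hold few genes, and differences between them were not tested. The other comparisons gave the list these counts. In TAZ4SA, where Sp100 fell, 29 of 61 rose (background 31.1%) and 14 fell (background 26.4%), or 9 without TAZ4SA replicate 1. In YAP5SA 19 rose (background 36.3%) and 19 fell (background 34.9%). In TFE3 1 rose (background 2.35%) and 3 fell (1.02%), in CAMTA1 against EVsub 1 rose (1.29%) and 4 fell (0.891%), and in EVsub against EV 1 rose (12.5%) and 16 fell (9.59%).

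PML nuclear body genes and other genes of SAND or bromodomain proteins formed a second list, with 23 of 24 tested. In TAZ-CAMTA1 against EV 4 rose and 1 fell (21.7%, background 21.5%), and in YAP-TFE3 against EV 2 rose and 0 fell (8.7%, background 15.3%). Pml, the scaffold of the bodies in which SP100 resides, rose by 0.57 ± 0.13 in TAZ-CAMTA1 and 0.49 ± 0.13 in YAP-TFE3 on the log2 scale (edgeR adjusted p = 0.00233 and 0.00925). Pml also rose against EV by 1.06 ± 0.13 in TAZ4SA, 0.80 ± 0.13 in YAP5SA and 0.79 ± 0.13 in EVsub, and fell by 0.54 ± 0.13 in TFE3 (edgeR adjusted p = 4.17e-07, 7.78e-06, 0.000132 and 0.0203). Hipk2, a kinase of the bodies, rose by 1.40 ± 0.13 and 0.75 ± 0.13 (edgeR adjusted p = 1.01e-07 and 0.000334), and by 0.75 ± 0.13 in TAZ4SA and 0.94 ± 0.13 in YAP5SA (edgeR adjusted p = 5.65e-05 and 1.51e-06). Daxx, a histone chaperone of the bodies, gave -0.14 ± 0.11 and -0.02 ± 0.11 (edgeR adjusted p = 0.411 and 0.931). None of the 3 tested SAND genes and 4 tested bromodomain or PHD finger genes of the list was called in either comparison. The count for TAZ-CAMTA1 was 3 without EV replicate 1 or 3 or TAZ-CAMTA1 replicate 2 or 3, and 8 without TAZ4SA replicate 3. The call of Pml in YAP-TFE3 was lost without EV replicate 3 (adjusted p = 0.0519) or YAP-TFE3 replicate 1 (0.0591).

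**Figure D5:**
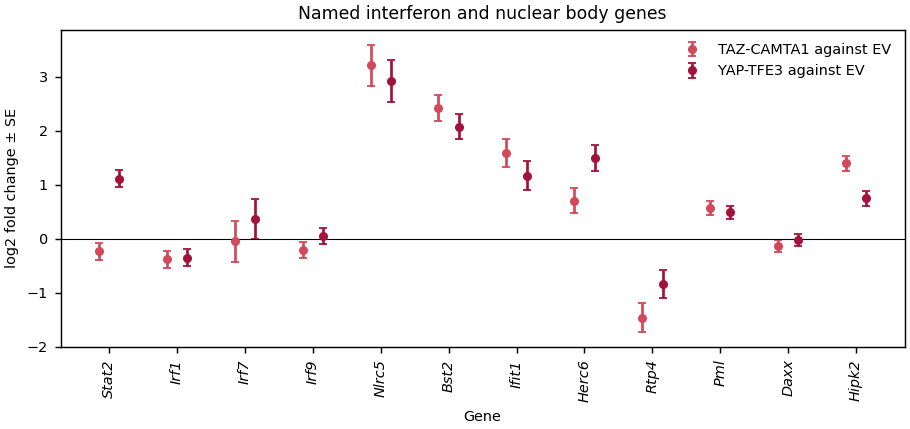
Named genes of the interferon and nuclear body lists in TAZ-CAMTA1 and YAP-TFE3 cells against EV. The vertical axis is the log2 fold change with its standard error and the horizontal axis gives the genes. Nlrc5 (3.22 and 2.92) and Bst2 (2.42 and 2.08) are high in both, while Stat2 is above 0 in YAP-TFE3 (1.12) and not in TAZ-CAMTA1 (-0.23).

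Outside the cluster, the genes whose log2 CPM over the 24 libraries ran closest to the mean standardized profile of the 5 members were Elmo1 (Pearson r = 0.917, Spearman rho = 0.762), Lyz2 (0.909, 0.775), Prr32 (0.908, 0.723), Gm7592 (0.907, 0.762) and Ptprt (0.894, 0.787). These values describe 14356 genes over libraries that share groups and depth, and the 100th gene in the order had r = 0.781. Elmo1, an engulfment and Rac activation factor, went from 0.470 ± 0.254 CPM in EV to 5.99 ± 0.716 in TAZ-CAMTA1 and 67.2 ± 25.5 in YAP-TFE3. Lyz2, the lysozyme of myeloid cells, went from 0.390 ± 0.225 to 21.6 ± 2.11 and 160 ± 69.3 CPM, while the 7 myeloid markers stayed at or below 5.02 CPM in sum in these cells. Ptprt, a receptor tyrosine phosphatase, had 0 counts in EV and was at least 140-fold higher in TAZ-CAMTA1 and at least 513-fold higher in YAP-TFE3, against a floor of 3 counts over the group. Prr32 had 1 count in EV, 15 in TAZ-CAMTA1 and 402 in YAP-TFE3. It had at most 6 counts in a TAZ-CAMTA1 library and at most 1 in a library without a fusion protein. Like Gm7592, it passed the count filter only through its YAP-TFE3 counts, and Ptprt passed only through the libraries with a fusion protein. The place of these genes among the closest is therefore a description with no test.

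Among the members themselves, the closest pair over the 24 libraries was Sp110 and C130026I21Rik (Pearson r = 0.894, Spearman rho = 0.865). Sp100 and Gm7609 had r = 0.843 but rho = 0.467, since their groups were ordered differently outside the fusion proteins. Sp100 and Sp140 were the least alike (r = 0.416, rho = 0.235). These pairs share libraries, and Sp110 and C130026I21Rik also share 146 stretches of 75 bases.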

How the data were processed

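RNA-Seq of 24 NIH 3T3 libraries was examined. Per Ensembl gene, the deposited values were unnormalized whole-number read counts, made by the authors. By the study's methods polyadenylated RNA was sequenced as paired-end 75-base reads and processed with bcbio-nextgen, Hisat2 and the mm10 genome, and gene-level counts were also made with Salmon and tximport from strand-marking libraries. Which route gave the deposited whole-number counts, and whether it used strand, is not given in the sources used here. Gene names and positions came from the GENCODE annotation of the same build, which matched 37693 of 39017 identifiers, and promoters from RefSeq. Groups and replicate numbers came from sample titles.

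Counts were scaled by TMM and fitted with edgeR 4.0.16 (R 4.3.3), in a single model of all 24 libraries with a term for each group. Genes averaging under 5 counts were left out, leaving 14361. A gene was called when its p, adjusted by Benjamini-Hochberg over all tested genes, was under 0.05. Standard errors were derived as the absolute log2 fold change divided by the square root of the F value of the test, and are approximate. Library totals ranged from 16471181 to 30132586 counts. Intervals at 95% (exact binomial) and floors of 3 counts cover counting error only, since no molecular identifiers mark independent molecules. The p-values rest on the spread between libraries within groups, estimated from all 24 libraries together and not from the compared groups alone.

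Replicates differed by more than sampling noise (chi-square per degree of freedom 5.58 or more), so no library was counted as a copy. Correlations for likeness used log2 CPM with a prior count of 2. The fit was tested on simulated data. Python 3.11.15, scipy 1.17.1 and pandas 2.3.3 were used.

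The members, the gene lists and the comparisons were chosen with earlier results of these data known. The genes named were all members, Stat2, Irf1, Irf7 and Irf9 and the 4 largest differences among called interferon genes in each fusion protein against EV, Pml, Daxx and called nuclear body genes with a log2 fold change of at least 1, the nearest neighbours and the one with the largest difference, the 5 genes of most similar profile, and genes sharing 75-base stretches with a member. Some genes that the rules also named are not reported here. Of the 72 interferon genes 1, Mb21d1, was not matched. Alternatives were DESeq2 1.42.0, its size factors, other count filters, a block for the replicate number, a fit of the compared groups alone, and each library left out in turn.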

Additional observations from a re-analysis of the deposited data

Results flagged for a closer look

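Of the 18 genes between the outermost members that were in the files and below the count filter, 3 had more than 3 counts in every YAP-TFE3 library and more than in any EV library. For comparison, every YAP-TFE3 library was above every EV library in CPM for 19.8% of all tested genes. That share covers only genes that passed the count filter, and the 3 genes are described with no test. Gm7582, an unprocessed pseudogene, had 51 counts in YAP-TFE3 (9 to 27 per library), 6 in TAZ-CAMTA1 and 0 in EV, which makes it at least 15.6-fold higher in YAP-TFE3 against a floor of 3 counts over the group. Gm2666, a processed pseudogene, had 41 counts in YAP-TFE3 (4 to 26), 2 in TAZ-CAMTA1 and 0 in EV, at least 12.5-fold higher in YAP-TFE3. Gm6264, a transcribed pseudogene, had 38 counts in YAP-TFE3 (11 to 14), 13 in TAZ-CAMTA1 and 10 in EV, a ratio of 3.48 over EV (95% counting interval 1.70 to 7.84). Gm7582 shares 75-base stretches with Sp100 and Gm7609, Gm2666 with Gm7609, and Gm6264 with Sp140 and C130026I21Rik, and the part of shared reads in these counts was not tested. The 18 genes together had 36 counts in EV, 69 in TAZ-CAMTA1 and 229 in YAP-TFE3.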

How the results depend on the processing

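The calls of Sp100 (30 of 30 alternatives) and Gm7609 (29 of 29) in TAZ-CAMTA1 against EV held, and no called result changed sign. Gm7609, Sp110 and C130026I21Rik were absent from the alternative with at least 10 counts in every library. Their lowest counts in the libraries without a fusion protein were 0, 3 and 5. The fits that left out a library, used the replicate block or took only the compared groups tested the same 14361 genes. Those fits therefore do not bear on how Gm7609 passed the count filter. Of the tested values that missed the threshold, 14 changed sign, all when 1 library was left out and none passing the threshold there. With each library left out, the log2 values in EVsub against EV ran from -0.55 to 0.25 for Sp110 (positive without EV replicate 3 or EVsub replicate 1), from -0.63 to 0.20 for C130026I21Rik (EVsub replicate 1) and from -1.35 to 0.13 for Gm7609 (EVsub replicate 2). C130026I21Rik in TAZ4SA ran from -0.62 to 0.086 (TAZ4SA replicate 3), and Sp140 in TAZ-CAMTA1 against TAZ4SA from -0.35 to 0.15 (TAZ4SA replicate 2 or TAZ-CAMTA1 replicate 1). In TAZ-CAMTA1 Irf7 ran from -0.32 to 0.26 (EV replicate 3 or TAZ-CAMTA1 replicate 2) and A630001G21Rik from -0.072 to 0.19 (negative without EV replicate 2 or TAZ-CAMTA1 replicate 2). In YAP-TFE3 Irf9 ran from -0.00075 to 0.078 (negative without EV replicate 3) and Daxx from -0.083 to 0.025 (positive without EV replicate 1 or YAP-TFE3 replicate 2). In the untested comparisons of Gm7609 with EV, where 4 or 5 counts stand against 4, the sign changed, among others, without TFE3 replicate 1 (log2 0.34 in place of -0.14) and without YAP5SA replicate 3 (-0.23 in place of 0.56). Over the members' results, 15 alternative values newly passed the threshold, 3 newly missed it, and 12 untested ones moved by more than 1 SD. With at least 10 counts required in every library 11461 genes were tested, and of the members only Sp100 and Sp140. Of these members 1 was called in TAZ-CAMTA1 against EV, 1 in TAZ4SA against EV and 1 in TAZ-CAMTA1 against TAZ4SA. The share of all genes called in that fit is not given here. With the same filter 12 interferon genes rose in YAP5SA, and 1 neighbour was called in YAP-TFE3. With no filter (24737 genes) 8 neighbours were called in YAP-TFE3 and 3 interferon genes rose in CAMTA1. With DESeq2 5 interferon genes fell in YAP-TFE3, 2 rose and 5 fell in TFE3, and 3 rose in CAMTA1. With its size factors 2 rose in TFE3. With only the compared groups fitted, 4 interferon genes rose and 14 fell in TFE3, 0 rose and 0 fell in CAMTA1 against EVsub, 0 rose and 9 fell in EVsub, and 8 nuclear body genes were called in TAZ-CAMTA1. Over all genes, that fit called 1512 in TFE3 in place of 484, 22 in CAMTA1 in place of 313, 1683 in EVsub in place of 3173, 4952 in YAP-TFE3 against TFE3 in place of 3288, and 2572 between the fusion proteins in place of 1671. CAMTA1 calls were 636 with DESeq2 and 674 with no filter. The causes were not tested.

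With each library left out in turn, members called of 5 ranged from 2 to 3 in TAZ-CAMTA1, 1 to 3 in TAZ4SA and 2 to 4 between them, with 0 in CAMTA1 and EVsub. In the main fit 21.5% of all tested genes were called in TAZ-CAMTA1, 57.5% in TAZ4SA, 2.18% in CAMTA1 and 22.1% in EVsub. Between TAZ-CAMTA1 and TAZ4SA 26.6% were called higher in TAZ-CAMTA1. Shares for each of the fits without a library are not given here. Interferon genes that rose and fell ranged from 7 to 9 and 3 to 11 in TAZ-CAMTA1, 25 to 30 and 9 to 15 in TAZ4SA, 8 to 13 and 0 to 6 in YAP-TFE3, 15 to 19 and 17 to 22 in YAP5SA, 0 to 2 and 0 to 5 in TFE3, 0 to 3 and 0 to 8 in CAMTA1, and 0 to 1 and 6 to 21 in EVsub. Nuclear body calls ranged from 3 to 8 in TAZ-CAMTA1 and 1 to 3 in YAP-TFE3, and neighbour calls, Gm7592 included, from 2 to 5 in both. An alternative chosen after seeing the data counted only genes that also averaged 5 counts without YAP-TFE3. It left 3 neighbours called in each fusion protein and 5 and 2 nuclear body genes. The interferon genes that fell in YAP-TFE3 were 0 without EV replicate 1, 1 without YAP-TFE3 replicate 1 or 3 and 6 without EV replicate 2 or TAZ4SA replicate 2. Those that fell in EVsub were 6 without EVsub replicate 1, 9 without EV replicate 3 and 10 without EV replicate 1 or EVsub replicate 2. Over all genes, YAP-TFE3 against EV had 1133 calls without YAP-TFE3 replicate 1 and 1448 without EV replicate 3, in place of 2203. TAZ-CAMTA1 against EV had 2010 to 2045 without EV replicate 1 or 3 or TAZ-CAMTA1 replicate 2 or 3, in place of 3088. Between the fusion proteins there were 835 to 1000 without TAZ-CAMTA1 replicate 2 or 3 or YAP-TFE3 replicate 1. TFE3 had 192 to 286 when a single EV or TFE3 library was left out. EVsub had 1971 without EV replicate 3 and 2098 without EVsub replicate 2. CAMTA1 ranged from 72 without EVsub replicate 2 to 709 without EVsub replicate 1.

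The samples were not treated as paired, since no comparison had all 3 correlations of same-numbered deviations over 0.1 (0.174, 0.0857 and -0.128 for TAZ-CAMTA1 and EV). The highest values were in CAMTA1 against EVsub (0.252, -0.00246 and 0.410 for replicates 1, 2 and 3). This rule does not show that libraries with the same number were unrelated. With the replicate block 2 members were called in TAZ-CAMTA1, 2 in TAZ4SA and 2 between them, 8 interferon genes rose and 7 fell in TAZ-CAMTA1, and 4 nuclear body genes were called there. It moved no such count by over 1.5 times. Gm7609 had 4 counts over the EV libraries, so its ratios to EV have wide intervals.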
